A study of Mus musculus with 5 samples.

Results

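Tff3 and 9 genes typical of simple or biliary epithelium (Krt7, Krt8, Krt18, Krt19, Krt23, Epcam, Sox9, Spp1 and Muc1) were followed in liver RNA of mice with and without Lifr, the leukemia inhibitory factor receptor, in hepatocytes. Each was taken as the row of the expression table that carries its symbol, which gave 10 genes of 23793. The 10 genes were chosen from the measured difference between these same groups, so their differences are given as a description and support nothing. RNA-seq covered 3 Lifr fl/fl;Alb-Cre livers and 2 Lifr fl/fl livers, all from C57BL/6 mice at 12 weeks of age. The Alb-Cre genotype, called knockout here, expresses Cre recombinase from the albumin promoter, active in hepatocytes, and loses a floxed exon of Lifr there. The labels write this genotype as Lifrfl/fl;Crealb/alb. The Lifr fl/fl mice (control) carry the same floxed allele without Cre. A group with Cre and intact Lifr is not among these libraries, so what Cre does and what losing Lifr does cannot be told apart. The values are FPKM, fragment numbers divided by transcript length and by the mapped fragments of the library, and so can be compared between genes.

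Lifr itself was at 32.8, 44.3 and 54.8 FPKM in knockout livers, against 132 and 151 FPKM in control livers. The groups did not overlap, and the log2 difference was -1.71 ± 0.19 (SE, adjusted p = 0.0045 from limma), a call that was lost when genes of low level were kept in (limma adjusted p = 0.062) and without either control value (adjusted p = 0.26 and 0.29 from limma). Within each group the deposited values of a gene stand in ascending text order, for 15586 of the 15586 genes whose values all differ, so a column follows no mouse. Values are therefore named by their rank (lowest, middle, highest), and no statement links 2 genes within 1 mouse. Hepatocyte markers such as Apoa2, an apolipoprotein (8645 to 9326 FPKM in knockout livers, 10320 and 10432 FPKM in control livers), and Fabp1, the liver fatty acid-binding protein (4323 to 5006 FPKM in knockout livers, 6594 and 6900 FPKM in control livers), were the most abundant of the markers examined. These 2 were lower in knockout livers, but of the 12 hepatocyte markers tested, 8 had a log2 difference above 0 and 4 below. Among 12 pancreas markers, 9 were listed at 0 in every library, including the insulin genes, although the elastase gene Cela1 stood at 9.58 to 15.4 FPKM in knockout livers and at 17.9 and 20.4 FPKM in control livers.

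Bile ducts are lined by cholangiocytes, epithelial cells that carry Krt7 and Krt19 and that are a small minority of the cells of a liver, whereas hepatocytes form their filaments from Krt8 and Krt18 alone. A keratin filament pairs a type II chain (Krt7, Krt8) with a type I chain (Krt18, Krt19, Krt23). Tff3 belongs to the trefoil factors, small secreted peptides that mucus-producing cells release with mucins and that are known for epithelial repair. In whole liver RNA, fewer cells of a type and less RNA per cell cannot be told apart.

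The bases just before the transcription start are shown for Krt8, Krt18 and Krt23, the 3 genes of the 10 whose knockout values all lay below the control values. The sequences come from RefSeq (GRCm38.p6, the mm10 assembly), whose table of upstream sequences held 7 of the 10 genes and not Tff3, Krt19 or Sox9. Each is the 250 bases upstream of the start, 5′ to 3′ on the strand of the gene, and capitals mark a match, on either strand, to the STAT palindrome TTCNNNGAA, the C/EBP motif TTGCNNAA, the AP-1 motif TGANTCA, the GC box, which reads GGGCGG, the TATA box, which reads TATAAA, or the CCAAT box. No match overlapped another in these windows.
Krt8, chr15:102004343-102004592, minus strand: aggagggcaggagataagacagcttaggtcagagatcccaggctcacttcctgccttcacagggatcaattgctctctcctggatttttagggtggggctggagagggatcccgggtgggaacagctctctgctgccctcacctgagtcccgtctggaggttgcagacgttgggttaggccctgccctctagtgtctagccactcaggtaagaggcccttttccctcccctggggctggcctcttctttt
Krt18, chr15:102027966-102028215, plus strand: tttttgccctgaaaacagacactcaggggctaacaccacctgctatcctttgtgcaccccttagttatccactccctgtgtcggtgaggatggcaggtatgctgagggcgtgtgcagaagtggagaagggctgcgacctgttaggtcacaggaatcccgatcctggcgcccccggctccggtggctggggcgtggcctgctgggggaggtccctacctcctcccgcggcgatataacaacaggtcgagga
Krt23, chr11:99493121-99493370, minus strand: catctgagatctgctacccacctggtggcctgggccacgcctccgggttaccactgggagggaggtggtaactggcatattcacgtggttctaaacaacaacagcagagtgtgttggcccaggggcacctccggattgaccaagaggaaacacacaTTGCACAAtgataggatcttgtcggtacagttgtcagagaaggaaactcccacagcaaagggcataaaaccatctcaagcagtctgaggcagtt
Of the motifs searched, only the C/EBP motif occurred in these 3 windows, once, in Krt23 from 94 to 87 bases before the start. Of 32851 windows of the same length, 9.56% held this motif, 7.02% TTCNNNGAA, 6.75% TGANTCA, 32.7% GGGCGG, 12.4% TATAAA and 33.8% the CCAAT box. GC content was 58.0% for Krt8, 60.4% for Krt18 and 52.8% for Krt23. Among the other matched genes, Krt7 (66.0% GC) held 4 GC boxes, Epcam 1 and Muc1 2, and Muc1 also held TATAAA from 31 to 26 bases before its start and a CCAAT box. Spp1, with 2 annotated starts, held TATAAA from 211 to 206 bases and a CCAAT box from 46 to 42 bases before the first, and a C/EBP match from 156 to 149 bases before the second.

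Tff3 (XLOC_009162, chr17:31125306-31129611) was the gene of the 10 with the largest difference. Its values were 11.5, 17.4 and 43.4 FPKM in knockout livers, against 3.79 and 3.84 FPKM in control livers. All 3 knockout values lay above both control values, and they were 2.99, 4.55 and 11.3 times the higher of these. The means were 24.1 ± 17.0 FPKM in knockout livers (SD, n = 3) and 3.81 ± 0.033 FPKM in control livers (SD, n = 2), a ratio of 6.32. On the scale log2(FPKM + 0.1), the difference was 2.40 ± 0.42 (SE). Tff3 thus stood at the 89.4th percentile of the table by its level in knockout livers and at the 67.1st by its level in control livers.

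**Figure D1:**
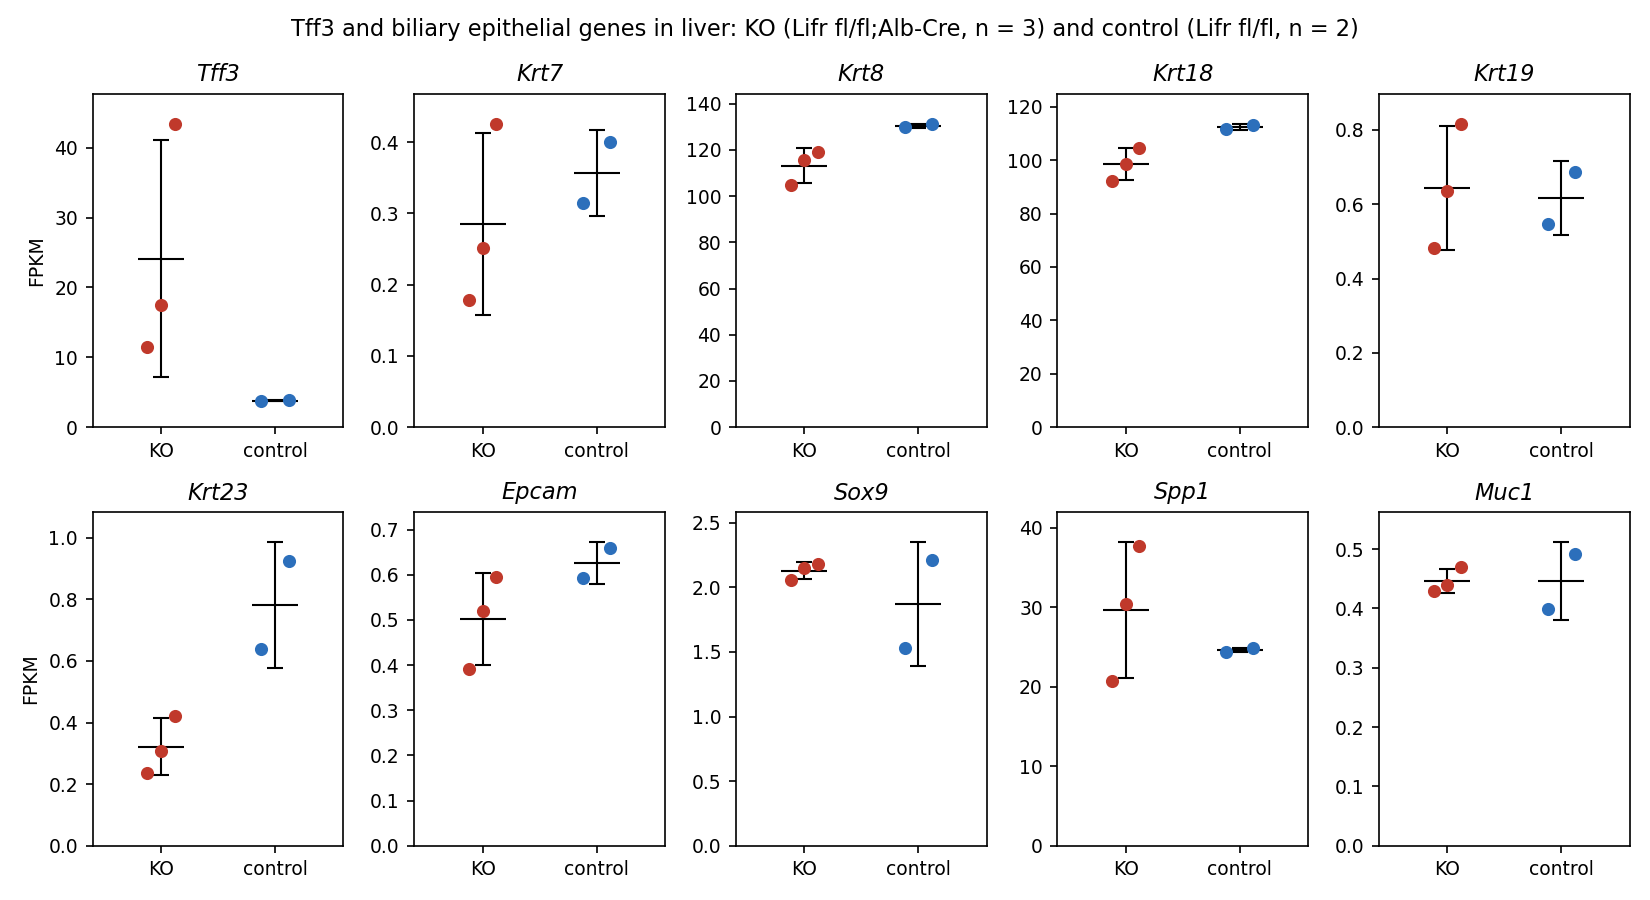
FPKM (vertical axis, a scale of its own for each gene) of Tff3 and 9 genes typical of simple or biliary epithelium in knockout livers (KO, Lifr fl/fl;Alb-Cre, n = 3, red) and control livers (Lifr fl/fl, n = 2, blue). Points are libraries ordered by value, the long bar is the mean and the whiskers are 1 SD; the 3 Tff3 values of knockout livers, 11.5 to 43.4 FPKM, lie above both control values and far apart from each other.

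The knockout livers differed among themselves in Tff3 more than in most genes. The highest knockout value was 3.78 times the lowest, while the higher control value was 1.01 times the lower. The SD of log2(FPKM + 0.1) among knockout livers was 0.98 for Tff3, at the 99.4th percentile of 11687 tested genes, whose median was 0.15. The control livers gave 0.012 for the same SD, from 2 values only. Of the 66 genes past the threshold, Tff3 was the only one with a standard error as wide as its own, 2.86 times the median of all tested genes.

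Tff3 ranked 16th from the top by log2 difference among the 11687 tested genes. Of these 16 genes, 8 were past the threshold. The next gene above it that passed was Orm3, an orosomucoid gene of the acute phase family, with 17.4, 18.1 and 25.9 FPKM in knockout livers, against 3.29 and 3.39 FPKM in control livers. Spink3, which encodes a secreted serine protease inhibitor, stood next below Tff3, at 0.508, 0.615 and 1.25 FPKM in knockout livers and at 0 and 0.197 FPKM in control livers. Between Orm3 and Tff3 lay Mir6385 and Gm12238, and after Spink3 came Mir6353 and 2210011C24Rik. Mir6385, Gm12238 and Mir6353 were each above 0 in only 1 knockout library and in no control library. 2210011C24Rik was at 4.10 FPKM in its highest knockout library and below 0.5 FPKM in the other 4 libraries. Orm3 had values of a like size to those of Tff3 in both groups. The places of Mir6385, Gm12238, Mir6353 and 2210011C24Rik rest on 1 library each. The groups of Spink3 did not overlap, and it reached the 0.5 FPKM minimum only through the knockout livers.

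The other trefoil factors lie next to Tff3 on chromosome 17, Tff2 11450 bases and Tff1 a further 17112 bases away, and both were near the lower limit of the measurement. Tff1, a trefoil factor best known from stomach, was at 0.478, 0.517 and 0.826 FPKM in knockout livers, against 0.238 and 0.595 FPKM in control livers, and these groups overlapped (log2 difference 0.51 ± 0.36 SE). Tff2 was at 0.224, 0.229 and 0.473 FPKM in knockout livers, against 0 and 0.123 FPKM in control livers, under the 0.5 FPKM minimum for testing. The mean level of Tff3 was 39.7 times that of Tff1 in knockout livers and 9.16 times in control livers, and it was 78.2 times that of Tff2 in knockout livers and 62.1 times in control livers. The groups of Tff2 did not overlap.

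No gene of the trefoil, mucin and goblet cell list, which holds the partners of Tff3 in mucus, passed the threshold. Of its 20 genes, 17 were in the table, 6 were listed at 0 in every library and only Tff1 and Clca1 reached a mean of 0.5 FPKM, Tff1 only through the knockout livers. Clca1, a secreted protein of goblet cells, was at 1.62, 1.71 and 2.54 FPKM in knockout livers, against 1.18 and 1.67 FPKM in control livers (log2 difference 0.42 ± 0.23 SE). Neither gene had an unadjusted p under 0.05 in limma. The gel-forming mucin Muc5ac and the goblet cell genes Agr2 and Agr3 were at 0 in all 5 libraries, and Muc2, the main intestinal mucin, was at 0.034 FPKM or less in each of them.

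Among the 10 genes, 8 passed the filter of 0.5 FPKM on average and 2, Krt7 and Muc1, did not. With an adjusted p under 0.05, 1 of these 8 was higher and 0 were lower in knockout livers, while 0.359% of all tested genes were higher and 0.205% lower. The 1 gene was Tff3, and the count was 0 with a pseudocount of 1 FPKM, with no filter, with no trend in eBayes, without the middle knockout value and without either control value. The groups did not overlap in 4 of the 10, with knockout values higher in 1 and lower in 3, and over all tested genes this share was 15.1% with knockout values higher and 10.7% with knockout values lower. Nothing is read from either count, since the contrast chose the genes. The median log2 difference of the 8 genes was -0.08, against 0.03 for all tested genes, and it was -0.19 for the 7 without Tff3.

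**Figure D2:**
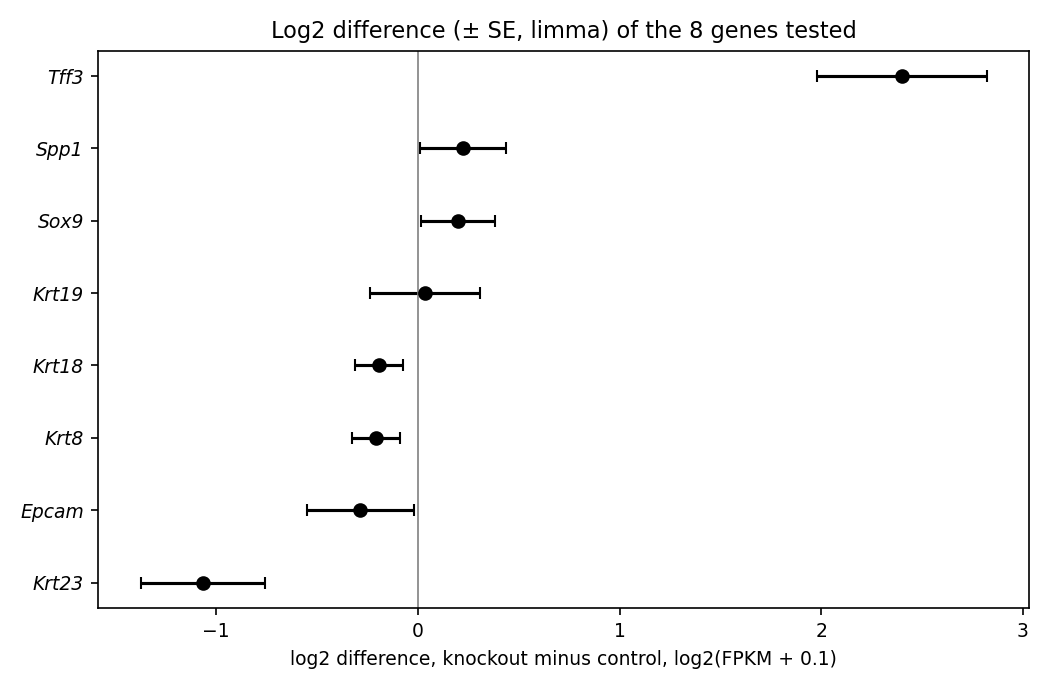
Log2 difference (knockout minus control, on log2(FPKM + 0.1); points) with its standard error from limma (whiskers) for the 8 genes of the 10 that averaged 0.5 FPKM or more. Tff3 lies at 2.40, Krt23 at -1.07, and the other 6 lie between -0.28 and 0.22.

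Krt8 and Krt18, the filament pair of hepatocytes and of other simple epithelia, were the most abundant of the 10 genes and had slightly lower values in knockout livers. Krt8 (XLOC_007610, chr15:101996711-102004342), the type II chain, was at 105, 116 and 119 FPKM in knockout livers, against 130 and 131 FPKM in control livers. Krt18 (XLOC_007128, chr15:102028216-102032026), the type I chain, was at 92.3, 98.7 and 104 FPKM in knockout livers, against 112 and 113 FPKM in control livers. For both genes every knockout value lay below every control value. The log2 differences, -0.21 ± 0.12 and -0.19 ± 0.12 (SE), were close to each other, and the genes are neighbours, 23873 bases apart. Reads shared by Krt8 and its annotated copy Krt8-ps would not map uniquely, so the level of Krt8 is uncertain to that extent.

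Type II and type I chains stood in nearly the same ratio in both groups. The ratio of summed type II to type I keratin FPKM was 1.14 in knockout livers and 1.14 in control livers. Krt8 and Krt18 alone gave 1.15 in knockout livers and 1.16 in control livers, and together they made up 99.1% of all keratin FPKM in knockout livers and 99.0% in control livers. Of 45 keratin genes with a number in the table, 33 were at 0 in every library, 12 were above 0 and only Krt8, Krt18, Krt19 and Krt23 reached a mean of 0.5 FPKM. Krt10, a keratin of epidermis, came just short of the minimum, with 0.335, 0.388 and 0.557 FPKM in knockout livers and 0.580 and 0.618 FPKM in control livers.

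Krt23 (XLOC_003922, chr11:99477973-99493120), a type I keratin, had the largest downward difference of the 10 genes. It was at 0.236, 0.309 and 0.420 FPKM in knockout livers, against 0.638 and 0.926 FPKM in control livers. The groups did not overlap, and the knockout mean was 0.412 times the control mean (0.322 ± 0.093 FPKM, SD, n = 3, and 0.782 ± 0.20 FPKM, SD, n = 2). The log2 difference was -1.07 ± 0.31 (SE). Its mean over all 5 libraries, 0.506 FPKM, was just above the minimum, and it reached the minimum only through the control livers.

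The cholangiocyte keratins were scarce and their groups overlapped. Krt19 (XLOC_003960, chr11:100140810-100145926), the type I chain that marks bile ducts, was at 0.482, 0.635 and 0.816 FPKM in knockout livers, against 0.547 and 0.688 FPKM in control livers (log2 difference 0.03 ± 0.27 SE). Krt7 (XLOC_007123, chr15:101412403-101427806), its usual type II partner in bile ducts, was at 0.178, 0.251 and 0.426 FPKM in knockout livers, against 0.315 and 0.400 FPKM in control livers. Krt7 was not tested, and its values differed by -0.29 on the log2 scale. The mean level of Krt8 was 176 times that of Krt19 in knockout livers and 211 times in control livers.

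Epcam (XLOC_008942, chr17:87635979-87651127), a cell adhesion protein of bile duct cells and of most epithelia but not of mature hepatocytes, was at 0.392, 0.519 and 0.594 FPKM in knockout livers, against 0.594 and 0.659 FPKM in control livers. The highest knockout value and the lower control value were nearly equal, so the groups just overlapped (log2 difference -0.28 ± 0.27 SE). Muc1 (XLOC_013075, chr3:89229056-89233381), a mucin anchored in the apical membrane, was at 0.430, 0.440 and 0.470 FPKM in knockout livers, against 0.400 and 0.492 FPKM in control livers. All 3 knockout values of Muc1 lay between the control values.

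Sox9 (XLOC_003201, chr11:112782210-112787757), a transcription factor of bile duct cells and of the periportal hepatocytes beside them, was at 2.06, 2.15 and 2.18 FPKM in knockout livers, against 1.53 and 2.21 FPKM in control livers. The knockout values were close together and lay within the span of the controls, and the log2 difference of 0.20 ± 0.18 (SE) became -0.05 without the lower control value. Spp1 (XLOC_015746, chr5:104435111-104441053) encodes osteopontin, a secreted phosphoprotein made by bile duct cells and also by macrophages. It was at 20.8, 30.4 and 37.7 FPKM in knockout livers, against 24.4 and 24.8 FPKM in control livers. The lowest knockout value was the lowest of all 5, and the 2 others lay above both controls (log2 difference 0.22 ± 0.21 SE). As for Tff3, the spread among knockout livers was wide, with an SD of log2(FPKM + 0.1) of 0.44 at the 95.4th percentile of tested genes, whereas that of Sox9, 0.042, was at the 6.19th percentile.

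The order of the 10 genes by level was alike at the top in both groups. In knockout livers the order of mean FPKM was Krt8 (113), Krt18 (98.5), Spp1 (29.6), Tff3 (24.1), Sox9 (2.13), Krt19 (0.644), Epcam (0.502), Muc1 (0.447), Krt23 (0.322) and Krt7 (0.285). In control livers it was Krt8 (130), Krt18 (112), Spp1 (24.6), Tff3 (3.81), Sox9 (1.87), Krt23 (0.782), Epcam (0.626), Krt19 (0.618), Muc1 (0.446) and Krt7 (0.357). The first 5 genes kept their order, and Krt23 stood below Epcam, Krt19 and Muc1 in knockout livers and above them in control livers. In knockout livers the values of Spp1 and Tff3 overlapped, as did those of each pair of neighbours from Krt19 down, apart from Muc1 and Krt23. In control livers each pair of neighbours from Krt23 down overlapped, apart from Krt19 and Muc1, and none of the first 5 overlapped with the next.

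**Figure D3:**
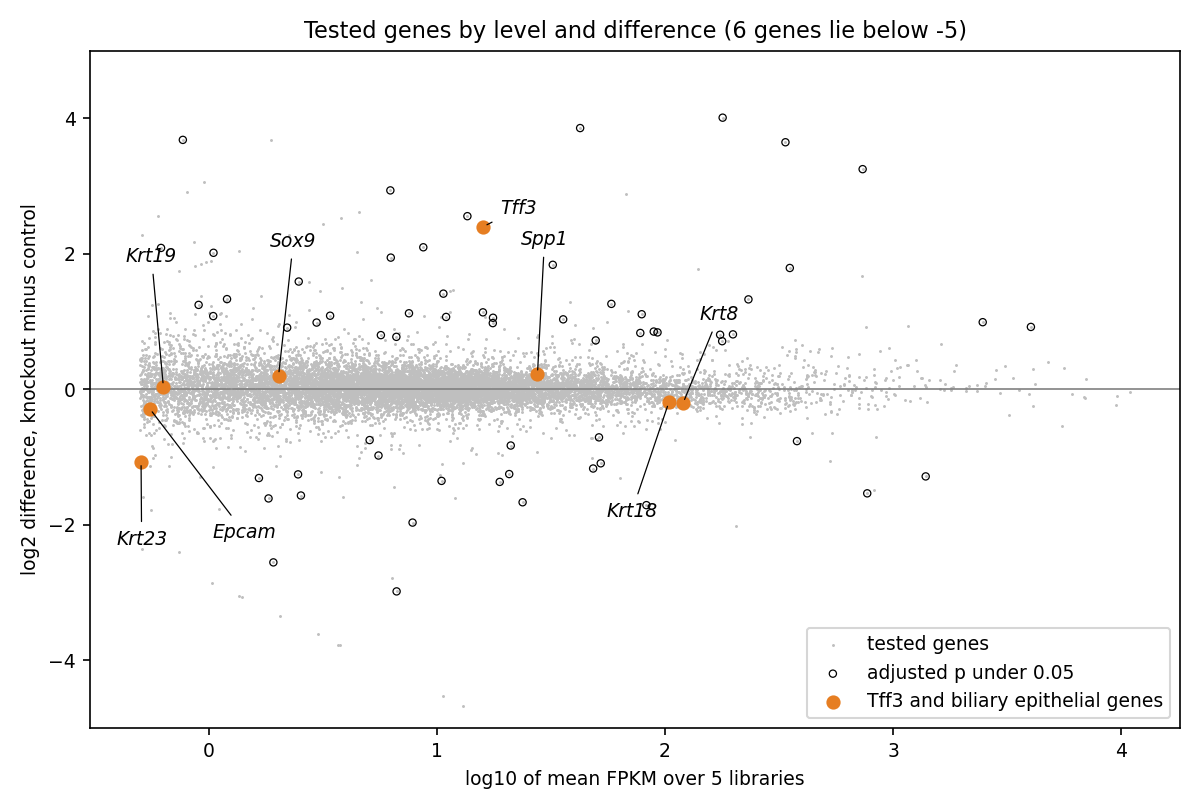
Log2 difference (knockout minus control, vertical axis) against the log10 of mean FPKM over 5 libraries (horizontal axis) for the tested genes (grey), those with an adjusted p under 0.05 (circles) and the 8 tested genes of the 10 (orange). The vertical axis spans 5 units either way, which leaves out 6 genes at its lower end; Tff3 lies far above the mass of genes of like level, and the other 7 lie in or near it.

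Further genes of the same cells and pathways were read from 5 lists, none of whose 46 tested genes passed the threshold in limma, with 0 higher and 0 lower. Of all tested genes, 0.359% were higher and 0.205% lower at this threshold, so nothing is read from 0 calls in lists of this size. At an unadjusted p under 0.05, 3 were higher and 4 were lower, and over all tested genes 6.08% were higher and 3.56% lower at that cut. Genes named from the lists beside their most abundant ones were chosen after their values were seen.

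Other biliary epithelial genes showed no common direction. Of 27 in the table, 14 were tested, with 8 log2 differences above 0 and 6 below, and a median of 0.02 against 0.03 for all tested genes. Clu, a secreted chaperone that hepatocytes also make in quantity, was at 951, 1041 and 1168 FPKM in knockout livers, against 826 and 912 FPKM in control livers (log2 difference 0.27 ± 0.14 SE). Tm4sf4, a membrane protein, was at 54.5, 59.5 and 72.4 FPKM in knockout livers, against 40.5 and 63.1 FPKM in control livers. The widest differences were those of Slc10a2, the apical bile acid transporter of ileum and bile ducts, at 4.75, 5.80 and 7.31 FPKM in knockout livers, against 2.07 and 3.78 FPKM in control livers, and of Wfdc2, a secreted protease inhibitor of epithelia. Slc10a2 gave a log2 difference of 1.04 ± 0.25 (SE, adjusted p = 0.16 from limma). Wfdc2 was at 1.45, 1.76 and 1.90 FPKM in knockout livers, against 2.71 and 3.07 FPKM in control livers, a log2 difference of -0.73 ± 0.17 (SE, adjusted p = 0.14 from limma). Cftr, the chloride channel of bile duct cells, and Sctr, the secretin receptor found on them, did not exceed 0.030 FPKM in any library.

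Genes that tie keratin filaments to cell junctions differed in either direction. Of 9 tested genes of the desmosome and keratin linker list, 3 had a log2 difference above 0 and 6 below, with a median of -0.09. Over all tested genes, 54.9% were above 0 and the median was 0.03. The list also holds Lmna and Vim, which are not such linkers and lay below 0 (-0.17 and -0.21). The groups did not overlap in 3 of the 9, Dsp and Ppl with higher and Pkp2 with lower knockout values. Over all tested genes, this share was 15.1% with knockout values higher and 10.7% with knockout values lower. Lmna, which encodes the nuclear lamins A and C, was at 15.3, 16.3 and 18.9 FPKM in knockout livers, against 16.3 and 21.8 FPKM in control livers, and Dsc2, a desmosomal cadherin, was at 12.3, 14.5 and 19.5 FPKM in knockout livers, against 12.4 and 19.4 FPKM in control livers. Ppl, the linker periplakin, was the one with an unadjusted p under 0.05, at 2.87, 2.95 and 3.97 FPKM in knockout livers, against 2.01 and 2.04 FPKM in control livers (log2 difference 0.65 ± 0.17 SE, adjusted p = 0.21 from limma).

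The Notch pathway, through which ligands on neighbouring cells direct bile duct fate in the developing liver, had 9 of 12 tested genes below 0. Their median log2 difference was -0.18, against 0.03 for all tested genes, of which 54.9% were above 0. None passed the threshold. The receptor Notch2 was at 5.24, 6.25 and 7.44 FPKM in knockout livers, against 6.60 and 7.81 FPKM in control livers. Hes1, a target gene of the pathway, was at 6.91, 6.93 and 8.65 FPKM in knockout livers, against 8.46 and 11.4 FPKM in control livers (log2 difference -0.39 ± 0.16 SE, adjusted p = 0.49 from limma). Jag1, the ligand whose loss in humans causes a paucity of bile ducts, had overlapping groups and a log2 difference of 0.12 ± 0.20 (SE).

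Osteopontin acts on integrins and CD44, and 7 of the 9 receptor genes tested had a log2 difference above 0, where 54.9% of all tested genes did. Their median was 0.16, against 0.03 for all tested genes, and none passed the threshold. The groups did not overlap in 5 with knockout values higher and in 1 with knockout values lower. Over all tested genes these shares were 15.1% and 10.7%. Itgb1, the common β chain, was at 59.6, 61.1 and 62.3 FPKM in knockout livers, against 48.8 and 57.2 FPKM in control livers, and Itgb5 was at 14.9, 19.3 and 21.4 FPKM in knockout livers, against 18.9 and 22.3 FPKM in control livers. Cd44, the hyaluronan receptor, was at 4.25, 4.80 and 4.81 FPKM in knockout livers, against 3.09 and 3.28 FPKM in control livers (log2 difference 0.52 ± 0.13 SE, adjusted p = 0.19 from limma). Cd44 is also carried by leukocytes.

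**Figure D4:**
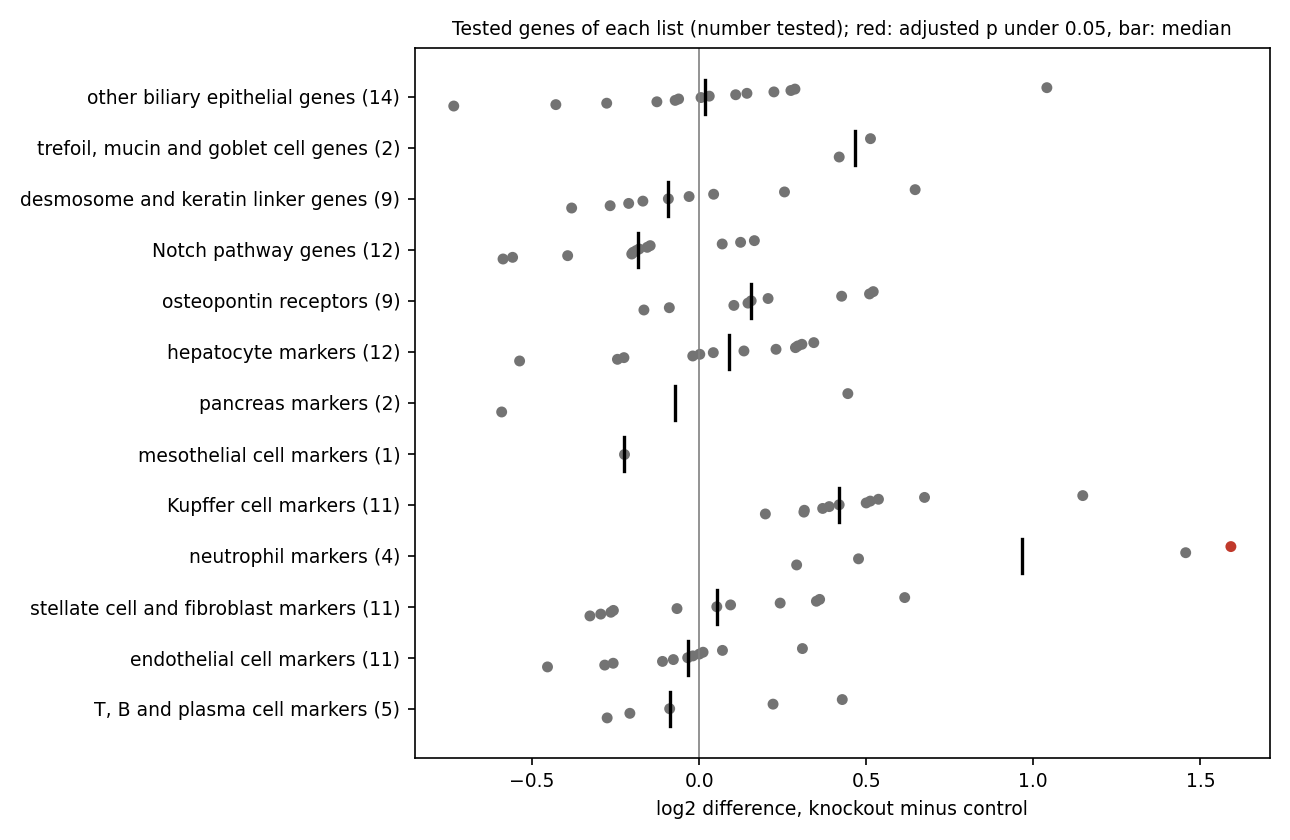
Log2 difference (knockout minus control, horizontal axis) of each tested gene of 13 lists (rows, with the number tested), the 5 lists around the 10 genes above and 8 lists of cell type markers below. Black bars are medians and red marks an adjusted p under 0.05, which 1 gene of these lists, S100a9, reached; the Kupffer cell and neutrophil markers all lie above 0.

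Like Tff3, most markers of resident macrophages and of neutrophils had higher mean levels in knockout livers. All 11 tested Kupffer cell markers had a log2 difference above 0, with a median of 0.42, where 54.9% of all tested genes were above 0. None passed the threshold. At an unadjusted p under 0.05 in limma, 6 of the 11 were higher and 0 lower, where 6.08% of all tested genes were higher and 3.56% lower. Cd5l, a secreted macrophage protein, was at 71.8, 74.5 and 95.7 FPKM in knockout livers, against 54.2 and 58.1 FPKM in control livers, and C1qc, a complement chain made by macrophages, was at 48.8, 52.7 and 74.4 FPKM in knockout livers, against 42.6 and 50.4 FPKM in control livers. From the lowest and highest value of each gene, the summed level of the Kupffer list lay between 349 and 487 FPKM in any knockout library and between 280.0 and 316 FPKM in any control library. Of the 9 neutrophil markers in the table, 4 were tested and had log2 differences above 0. Retnlg, 1 of them, reached the minimum only through the knockout livers. S100a9, a calcium-binding alarmin, was the 1 that passed, where 0.359% of all tested genes were higher and 0.205% lower. S100a9 was at 2.69, 3.54 and 4.04 FPKM in knockout livers, against 0.850 and 1.30 FPKM in control livers (log2 difference 1.59 ± 0.22 SE, adjusted p = 0.018 from limma), and the call was lost when genes of low level were kept in (limma adjusted p = 0.15) and without its higher control value (adjusted p = 0.21 and 0.17 from limma in 2 fits that differ in the values left out of other genes). The summed neutrophil list lay between 7.40 and 12.7 FPKM in any knockout library and between 3.33 and 5.07 FPKM in any control library. S100a8 and S100a9 had its highest mean levels and so weigh most in the sum, which was not taken without them. S100a8 was at 3.06, 3.98 and 5.36 FPKM in knockout livers, against 1.03 and 1.91 FPKM in control livers. Its log2 difference was 1.46 ± 0.27 (SE, adjusted p = 0.059 from limma). The groups of Csf3r did not overlap, with knockout values higher, and those of Retnlg did. The neutrophil granule genes Mpo, Elane, Ngp and Camp were each below 0.2 FPKM throughout. The part of either cell type in the levels of Tff3 and Spp1 was not tested.

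In the remaining marker lists no gene passed the threshold. Beside the pancreas list (2 tested, 1 at an unadjusted p under 0.05 in limma, Cela1), the medians were 0.09 for hepatocyte (12 tested), 0.05 for stellate cell and fibroblast (11 tested), -0.03 for endothelial (11 tested) and -0.09 for lymphocyte markers (5 tested), with 1, 1, 0 and 0 genes at an unadjusted p under 0.05 in limma, a cut that 9.63% of all tested genes met. Dcn, a matrix proteoglycan of stellate cells and fibroblasts, was at 59.5, 63.1 and 83.7 FPKM in knockout livers, against 46.5 and 61.1 FPKM in control livers. Mesothelial markers were scarce and only Gpm6a, a membrane glycoprotein that reached the minimum through the control livers, was tested (log2 difference -0.23 ± 0.33 SE). All 7 had values that differed downward, where 54.9% of all tested genes had a log2 difference above 0. In 3 of the 7, Lrrn4, Rspo1 and Upk3b, the groups did not overlap, and all 3 were under the 0.5 FPKM minimum for testing. Of all tested genes, 10.7% had groups that did not overlap with knockout values lower. This share and the 54.9% cover no gene under the minimum, where these 3 lie. The sum of the 7 lay between 0.651 and 1.92 FPKM in any knockout library and between 1.68 and 2.53 FPKM in any control library. Krt7, Krt8, Krt18 and Krt19 are also made by mesothelial cells, and the part of these cells in the keratin levels was not tested.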

How the data were processed

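Liver RNA of 3 Lifr fl/fl;Alb-Cre and 2 Lifr fl/fl mice was sequenced by the authors, who ran FastQC 0.11.5 on the reads, aligned them with TopHat2 2.1.1 to mm10, kept uniquely mapped reads with SAMtools 1.5 and estimated expression with Cufflinks 2.2.1 and a RefSeq annotation. The authors deposited FPKM values per gene and library, together with a fold change, a p-value and a call of their own comparison, which were not used. Counts were not used here, so depth is unknown and no counting interval is given; precision rests on the spread between livers. The methods mention duplicate RNA samples, and because columns follow no mouse, duplicated libraries could not be looked for.

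limma 3.58.1 (R 4.3.3), with lmFit and a trended eBayes, was fitted to log2(FPKM + 0.1) of the 11687 genes, of 23793, that averaged 0.5 FPKM or more over the 5 libraries. P-values were adjusted by Benjamini-Hochberg across these genes, and the threshold was 0.05. The procedure was tested on simulated normal values with spreads drawn from its own fit, which cannot show how it performs on these FPKM values. A log2 difference on this scale understates the change of genes of low level. Of 23793 symbols, 26 read as dates. The 10 genes and all lists were chosen with earlier results of these data known. Named genes were the 10 genes, up to 4 genes past the threshold per list or otherwise its 2 most abundant tested genes, keratins averaging 0.5 FPKM or more, Lifr, and the 3 genes either side of Tff3; others were named after their values were seen. Alternatives were other pseudocounts, filters, thresholds, no trend, removal of the median difference and leaving out 1 value by rank. Coordinates and promoter sequences come from RefSeq on GRCm38.p6, which placed 10 of the 10 genes. Motifs were searched in 250 bases before each start with Python 3.11.15.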

Additional observations from a re-analysis of the deposited data

How the results depend on the processing

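Tff3 kept its direction under all 11 alternatives, with log2 differences of 1.86 to 2.82 and adjusted p from 0.0017 to 0.61 (limma), and it stayed past the threshold in 5 of them. Its call was lost with a pseudocount of 1 FPKM (adjusted p = 0.066), no filter on low values (0.26), no trend (0.14), without the middle knockout value (0.057) and without either control value (0.61 and 0.57), so the count of the 10 genes past the threshold was 0 there, and 0 to 1 over the leave-one-out settings. Krt19 turned from 0.03 to -0.13 without its highest knockout value and to -0.11 without its lower control value, and Sox9 from 0.20 to -0.051 without its lower control value (range over leave-one-out settings -0.13 to 0.20 for Krt19 and -0.051 to 0.45 for Sox9). Muc1, not tested, ranged from -0.12 to 0.13. The other genes of the 10 kept their direction, and no gene of the 5 lists passed under any alternative. Of all genes, 42 higher and 24 lower calls became 11 and 5 with no filter, 21 and 11 with no trend, 68 and 41 at an adjusted p under 0.1, and 6 to 54 and 8 to 33 over the leave-one-out settings. The cause was not tested, other than that no filter tests more genes and leave-one-out settings hold fewer values. The ratio of type II to type I keratins was 1.14 in knockout and 1.16 in control livers from Krt7, Krt8, Krt18 and Krt19 only. Genes outside the 10 lost 1 value at random in leave-one-out settings. No paired analysis was possible because the values are sorted within each group and a column follows no mouse. With 2 control livers, every call rests on a spread shared with other genes.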
